A study of Mus musculus with 4 samples.

Results

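The 10 genes described here encode receptors of the TNF receptor superfamily that T cells use for costimulation or for death signalling: Tnfrsf1a, Tnfrsf1b, Tnfrsf4, Tnfrsf8, Tnfrsf9, Tnfrsf14, Tnfrsf18, Tnfrsf25, Cd27 and Fas. They were taken by symbol from the 50600 genes listed in each count table, and all 10 were found. They were measured by RNA sequencing in 4 libraries of primary mouse Th17 cells, strain C57BL/6NJ, with biological replicate numbers 1 to 4. Th17 cells are CD4 T cells that make IL-17. All 4 libraries belong to 1 group without a treatment, genotype or time contrast, so the comparisons set receptors, ligands and libraries beside each other. The labels give neither age nor sex, link a protocol for differentiating CD4 T cells, and carry 1 donor label for all libraries. They call the assay total RNA-seq, whereas the library protocol they link is named for poly(A)+ RNA.

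Receptors of this superfamily carry cysteine-rich domains outside the cell and bind trimeric ligands, most of them membrane proteins of the TNF family. Costimulatory members such as OX40, GITR, 4-1BB, CD27, CD30 and HVEM recruit TRAF adaptors, which lead to the classical and alternative NF-kappaB pathways and to survival. The receptors TNFR1, DR3 and Fas hold a death domain, through which TRADD or FADD can be bound. On helper T cells several of these receptors are known to be induced after antigen recognition.

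The library totals lay between 28555677 counts in replicate 1 and 58104663 in replicate 3, and 17983 to 19433 genes had at least 1 count. The 9 Th17 and CD4 T cell markers were all at or above 1 TPM (counts divided by exon length, then scaled so that each library has the same total) in every library, with Il17a, the cytokine that gives these cells their name, at 4436.1 ± 179 TPM and Cd4 at 346 ± 16.1 TPM (SD, n = 4). Of the markers of other cells, 0 of 6 for B cells, 0 of 5 for dendritic cells, 0 of 6 for CD8 T and NK cells, 1 of 6 for macrophages (Cd68) and 5 of 6 for regulatory T cells passed that level. Their summed levels were 1.44 to 1.91, 0.677 to 1.24, 0.523 to 1.18, 6.6 to 7.94 and 32.3 to 37.4 TPM over the libraries, in the same order. Ms4a1, Siglech, Ncr1, Klrb1c and Lyz2 had no count in any library. Foxp3, the defining factor of regulatory T cells, was at 6.29, 6.02, 4.97 and 3.70 TPM in replicates 1 to 4. Regulatory T cells are known to carry high levels of GITR, OX40 and CD30, and the part of such cells in the receptor levels was not tested. The libraries also fell into 2 pairs by sex-linked genes: Xist was at 132 and 131 TPM in replicates 1 and 2 against 0.329 and 0.496 in replicates 3 and 4, while Ddx3y was at 0.428 and 0.347 against 58.9 and 57.3.

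All 10 receptors were at or above 1 TPM in every library, a level that 47% of 21764 protein-coding genes reached. At 10 TPM 9 of the 10 passed, Tnfrsf8 being the exception. Of all 21764 protein-coding genes 7756 passed 10 TPM, and 10223 had passed 1 TPM. The median of their mean levels was 29 TPM, beside 31.3 TPM for protein-coding genes past 1 TPM and 0.575 TPM for all protein-coding genes. From the highest to the lowest mean the members spanned 923 to 5.4 TPM. In a bulk library a smaller number of cells with a transcript cannot be told apart from less of it per cell.

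**Figure D1:**
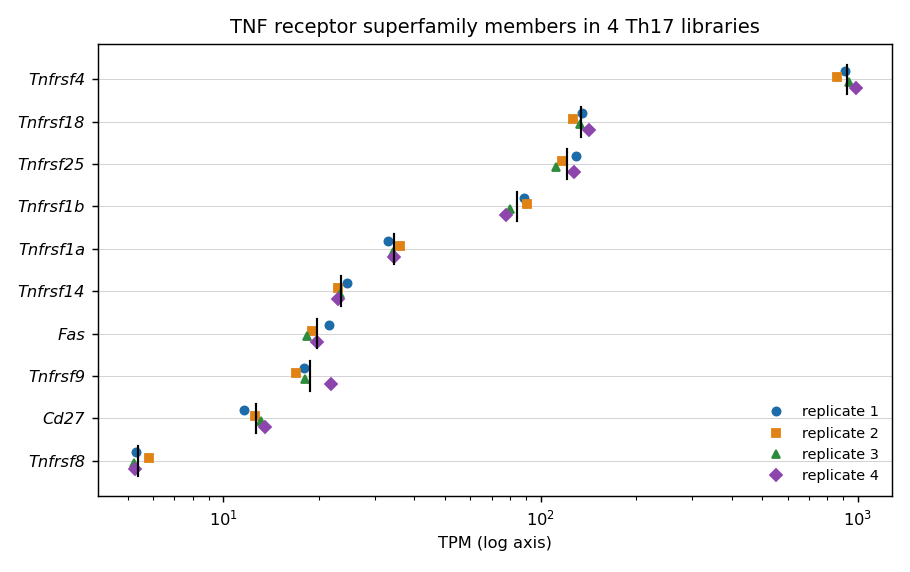
Level of each of the 10 receptors in the 4 Th17 libraries, in TPM on a log axis, with 1 point per library and genes ordered by mean level. Tnfrsf4 sits between 860 and 988 TPM, away from the other 9 genes, and Tnfrsf8 lies lowest at 5.22 to 5.82 TPM.

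Among the costimulatory receptors Tnfrsf4, which encodes OX40, was the most abundant. It measured 908, 860, 937 and 988 TPM in replicates 1 to 4, a mean of 923 ± 53.4 TPM, which was above 99.4% of protein-coding genes. The lowest library for Tnfrsf4 was thus still far above the highest library of any other member. Tnfrsf18 encodes GITR and measured 135, 126, 133 and 142 TPM. Within each library Tnfrsf4 was 6.88-fold higher than Tnfrsf18, a log2 ratio of 2.78 ± 0.03 (SD, n = 4). Both genes were lowest in replicate 2 and highest in replicate 4. The 3 protein-coding genes closest to Tnfrsf4 in level over the 4 libraries were Arhgdib at 927 ± 32.4 TPM, Eif3h at 894 ± 24.2 TPM and Cct5 at 925 ± 15.7 TPM, with mean absolute log2 differences of 0.026, 0.048 and 0.060.

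Both genes lie on the plus strand of chromosome 4 (mm10), Tnfrsf4 (ENSMUSG00000029075.6) at chr4:156013843-156016612 and Tnfrsf18 (ENSMUSG00000041954.18) at chr4:156026164-156028895. The gap between them is 9.55 kb and holds no other protein-coding gene. On the far side of Tnfrsf4, Sdf4 ends 232 bases away and measured 130 ± 4.12 TPM. Beyond Tnfrsf18, Ttll10 had no count in any library. The antisense gene Gm16008 covers 27.2% of the Tnfrsf18 exon bases on the opposite strand, and the deposited counts were made by strand.

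The stretches before the start sites of Tnfrsf4, Tnfrsf18 and Tnfrsf8 are shown because these genes are the most abundant pair, side by side in the genome, and the least abundant member. They come from the RefSeq promoter table (GRCm38.p6), with a window of 250 bases before and 50 after each start site, cut here to the longest run before the start site that overlaps no exon of GENCODE M21. They read 5′ to 3′ on the strand of the gene, and capitals mark matches to the NF-kappaB consensus or to the AP-1 motif TGANTCA. The stretch of Tnfrsf4 is chr4:156013611-156013694 on the plus strand, between the end of Sdf4 and the start site, that of Tnfrsf18 is chr4:156026072-156026163 on the plus strand, and that of Tnfrsf8 is chr4:145315165-145315414 on the minus strand. RefSeq starts Tnfrsf4 upstream of the deposited gene model, and the Tnfrsf18 stretch ends 158 bases before the RefSeq start, since a longer first exon begins there in GENCODE.
Tnfrsf4: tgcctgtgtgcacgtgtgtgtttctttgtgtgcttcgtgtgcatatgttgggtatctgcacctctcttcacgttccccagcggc
Tnfrsf18: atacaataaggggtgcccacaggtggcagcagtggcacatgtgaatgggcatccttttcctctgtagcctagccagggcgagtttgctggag
Tnfrsf8: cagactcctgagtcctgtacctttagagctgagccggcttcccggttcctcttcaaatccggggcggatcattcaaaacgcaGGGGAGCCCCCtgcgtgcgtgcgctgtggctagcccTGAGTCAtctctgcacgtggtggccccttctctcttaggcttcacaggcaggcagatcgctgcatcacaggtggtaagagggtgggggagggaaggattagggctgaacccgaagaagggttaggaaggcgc
The Tnfrsf8 stretch holds overlapping matches to the NF-kappaB consensus, whose last base lies 157 bases before the start site, and an AP-1 match 125 bases before it. Neither motif occurs in the whole 300-base windows of Tnfrsf4 and Tnfrsf18, which says only that these letters are not in those windows.

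All 10 members had a window, and Tnfrsf25 and Tnfrsf9 had a further one, which made 12 member windows among 32851 in all. On either strand, the NF-kappaB consensus was found in 3 of the 12 (Tnfrsf8, and 1 window each of Tnfrsf25 and Tnfrsf9) and in 8.46% of all windows. TGANTCA was found in 3 of the 12 (Tnfrsf8, Tnfrsf9, Fas) and in 7.81% of all windows. The TATA box TATAAA was in 0 of the 12 and in 13.6% of all, and the GC box GGGCGG in 5 of the 12 and in 35.7% of all. In Tnfrsf9 the matches lay in the window at chr4:150927749-150928048, where overlapping NF-kappaB matches end 32 bases and the AP-1 match 8 bases before the start site. The letters match without any measure of binding in these libraries.

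Tnfrsf9 encodes 4-1BB, a receptor that T cells raise after activation. It measured 17.9, 17.0, 18.1 and 21.9 TPM, a mean of 18.8 ± 2.19 TPM. Replicate 4 was the highest library, and the coefficient of variation of 11.7% was the largest of the 10 members. Tnfrsf4 was 49.2-fold higher than Tnfrsf9, a log2 ratio of 5.62 ± 0.09 (SD, n = 4). Tnfrsf9 (ENSMUSG00000028965.13) lies at chr4:150914562-150946102 on the plus strand, 124 bases from Park7, which measured 139 ± 1.1 TPM, and Camta1 on the other strand overlaps part of it.

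Tnfrsf8 encodes CD30 and was the lowest member. It measured 5.32, 5.82, 5.22 and 5.25 TPM from 931 counts in all, a mean of 5.40 ± 0.281 TPM. Replicate 2 lay above the other libraries, which spanned only 5.22 to 5.32 TPM. Tnfrsf9 was higher than Tnfrsf8 by a log2 ratio of 1.77 ± 0.21, in 4 of 4 libraries.

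Cd27 encodes a receptor of naive and memory T cells for CD70. Its levels were 11.6, 12.6, 13.1 and 13.5 TPM, a mean of 12.7 ± 0.824 TPM. Tnfrsf9 was higher than Cd27 by a log2 ratio of 0.56 ± 0.13, and their ranges did not overlap. Cd27 (ENSMUSG00000030336.14) lies at chr6:125232622-125237010 on the minus strand and shares 5.54% of its exon bases with the microRNA gene Mir8113 on the same strand, so fragments in the shared bases cannot be given to 1 gene with certainty.

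Tnfrsf14 encodes HVEM, which binds LIGHT and the inhibitory receptor BTLA. Its levels of 24.5, 23.0, 23.3 and 23.0 TPM gave a mean of 23.5 ± 0.717 TPM and the smallest coefficient of variation among the members, 3.05%. Btla was 5.69-fold higher than Tnfrsf14 at 134 ± 6.73 TPM, a log2 ratio of Tnfrsf14 to Btla of -2.51 ± 0.09, with Btla higher in 4 of 4 libraries. Tnfrsf14 (ENSMUSG00000042333.15) lies at chr4:154922210-154928563 on the minus strand.

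Of the receptors of TNF itself, Tnfrsf1b, which encodes TNFR2 and has no death domain, was the higher. It measured 88.8, 90.8, 80.2 and 77.8 TPM, and Tnfrsf1a, which encodes TNFR1, measured 33.0, 36.1, 34.2 and 34.6 TPM. The means were 84.4 ± 6.40 and 34.5 ± 1.29 TPM, a log2 ratio of 1.29 ± 0.12 (2.44-fold) with Tnfrsf1b higher in 4 of 4 libraries. Tnfrsf1b was higher in replicates 1 and 2 than in replicates 3 and 4 without overlap, the division that the sex-linked genes also show. The same division without overlap held for 5 of the 10 members, beside 37.8% of 10223 detected protein-coding genes: Tnfrsf1b and Tnfrsf8 were higher in replicates 1 and 2, and Tnfrsf4, Tnfrsf9 and Cd27 were higher in replicates 3 and 4. The part of that division in the receptor levels was not tested. Tnfrsf1b (ENSMUSG00000028599.10, chr4:145213463-145246870, minus strand) neighbours Tnfrsf8 (ENSMUSG00000028602.12, chr4:145267137-145315164, minus strand) across 20.3 kb with no protein-coding gene between, at mean levels of 84.4 and 5.40 TPM. Tnfrsf1a (ENSMUSG00000030341.17) lies at chr6:125349362-125362484 on the plus strand, and its neighbours Plekhg6, without a count, and Scnn1a, at 0.0514 TPM, were at or near 0.

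**Figure D2:**
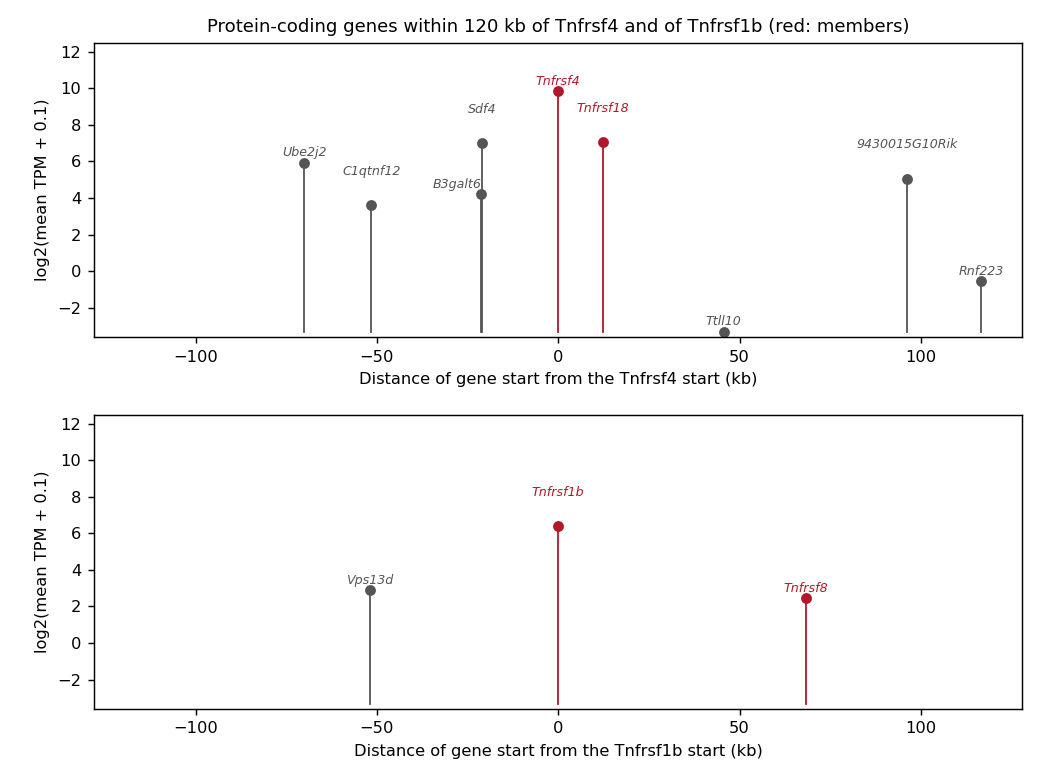
Mean level of protein-coding genes around Tnfrsf4 (upper panel) and around Tnfrsf1b (lower panel), as log2(mean TPM + 0.1) over 4 libraries against the distance of each gene's start in kb, with members in red. Tnfrsf18 is the nearest gene on the right of Tnfrsf4, and Tnfrsf8, at 5.40 TPM, is the nearest on the right of Tnfrsf1b.

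Among the receptors with a death domain, Tnfrsf25, which encodes DR3, the receptor of TL1A, was the highest. It measured 129, 117, 112 and 127 TPM, a mean of 121 ± 8.22 TPM. Its range overlapped that of Tnfrsf18, which was higher in 4 of 4 libraries by a log2 ratio of 0.15 ± 0.08. Tnfrsf25 (ENSMUSG00000024793.14, chr4:152115934-152120119, plus strand) lies 533 bases from Plekhg5, at 2.97 ± 0.162 TPM, and 211 bases from Espn, at 5.14 ± 0.250 TPM. It stood well above both neighbours.

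Fas, which triggers apoptosis when bound by Fas ligand, measured 21.6, 19, 18.4 and 19.8 TPM, a mean of 19.7 ± 1.41 TPM. It was lower than Tnfrsf25 by a log2 ratio of -2.62 ± 0.04, which is 6.13-fold, and lower than Tnfrsf1a by -0.81 ± 0.14. Fas and Tnfrsf9 could not be placed in order, since their ranges overlapped and Fas was higher in 3 of 4 libraries. Fas (ENSMUSG00000024778.12) lies at chr19:34290659-34327770 on the plus strand, the only member on that chromosome. Together Tnfrsf1a, Tnfrsf25 and Fas made up 12.7 ± 0.628% of the summed TPM of the 10 members, and Tnfrsf4 alone 67.0 ± 1.24%.

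By mean TPM the order ran Tnfrsf4, Tnfrsf18, Tnfrsf25, Tnfrsf1b, Tnfrsf1a, Tnfrsf14, Fas, Tnfrsf9, Cd27 and Tnfrsf8. Of the 9 neighbouring pairs in it, only Tnfrsf18 with Tnfrsf25 and Fas with Tnfrsf9 had overlapping ranges. By TPM the other neighbours kept their order in 4 of 4 libraries, with log2 ratios from 0.25 ± 0.07 (Tnfrsf14 over Fas) to 2.78 ± 0.03. The order of Tnfrsf14 and Fas turned with the length used: with the longest protein-coding transcript Tnfrsf14 was at 16.9 and Fas at 17.4 TPM.

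The other 18 genes of the superfamily, fixed as a list of their own, held 10 that passed 1 TPM in every library, beside 47% of protein-coding genes. Tnfrsf13b, which encodes TACI, a receptor known mainly from B cells, measured 279, 268, 261 and 246 TPM, a mean of 264 ± 13.6 TPM. Only Tnfrsf4 stood above it among the 28 genes, while the B cell marker Ms4a1 had no count and Pax5 was near 0 at 0.00655 TPM. Tnfrsf10b, a TRAIL receptor, measured 65.4 ± 2.23 TPM, Tnfrsf12a 45.3 ± 2.21 TPM and Relt 32.6 ± 0.592 TPM. Tnfrsf26 at 28.3 ± 3.41 TPM and Tnfrsf22 at 18.3 ± 1.01 TPM have close relatives beside them in the genome, and how fragments were shared among these genes was not tested. Ltbr, the lymphotoxin beta receptor, was near 0 at 0.369 ± 0.0612 TPM, Tnfrsf17 had 1 count in all, and Ngfr and Edar had none. The 10 members held 74.0 ± 1.49% of the summed TPM of the 28 genes and Tnfrsf4 alone 49.6 ± 1.79%.

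**Figure D3:**
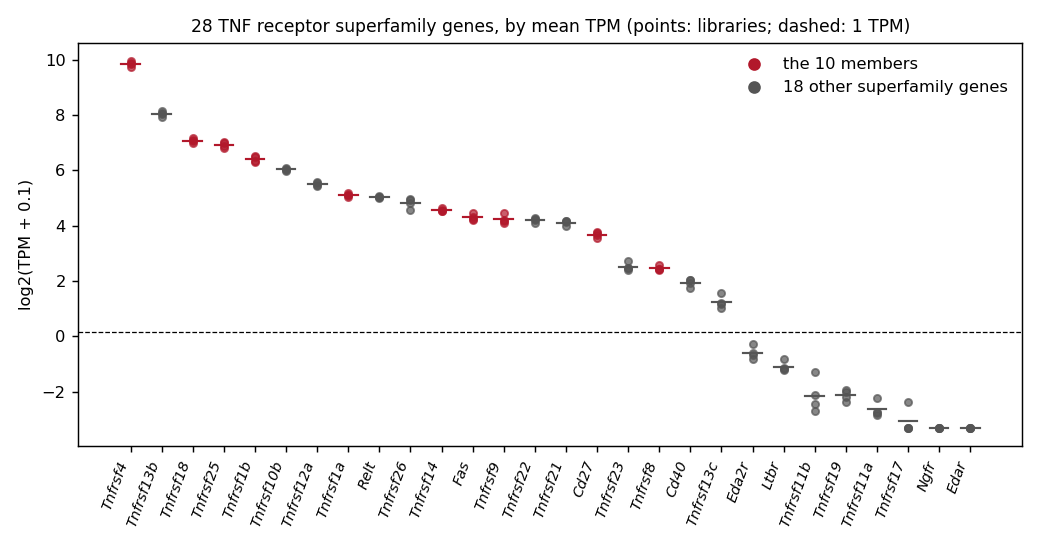
Level of 28 TNF receptor superfamily genes as log2(TPM + 0.1), ordered by mean TPM, with 1 point per library, the 10 members in red, the 18 others in grey and a dashed line at 1 TPM. All members lie above the line, Tnfrsf4 is highest, and Tnfrsf13b, at 264 TPM, is next.

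Each member was then set against its ligand within each library, as log2((TPM + 0.1)/(TPM + 0.1)). Of 13 ligands and binding partners, 10 passed 1 TPM in every library, beside 47% of protein-coding genes. Transcripts for both sides of several pairs were thus in the same libraries, and whether the same cells carried both was not tested. Tnfrsf4 exceeded Tnfsf4, which encodes OX40 ligand and measured 22.8, 17.7, 21.1 and 21.1 TPM, by a log2 ratio of 5.48 ± 0.12 (44.6-fold). Fas exceeded Fasl, at 2.07 ± 0.444 TPM, by 3.21 ± 0.33. Cd27 exceeded Cd70 by 0.61 ± 0.47, the ratio with the widest spread, as Cd70 measured 10.6, 8.79, 5.43 and 9.18 TPM. The receptor was on the higher side in all 4 libraries of each of these pairs.

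For other members the ligand was the more abundant transcript. Tnf measured 607 ± 16.9 TPM and gave log2 ratios of -2.85 ± 0.11 for Tnfrsf1b and -4.14 ± 0.09 for Tnfrsf1a. Lta, which encodes lymphotoxin alpha, also a ligand of both TNF receptors, measured 2961, 2999.1, 2849.4 and 2647 TPM, 82.8-fold above Tnfrsf1a. Tnfrsf1a and Tnfrsf1b were thus lower than Tnf in 4 of 4 libraries. The ratio was -1.45 ± 0.17 for Tnfrsf9 against Tnfsf9 (4-1BB ligand, 51.1 ± 2.71 TPM), -1.17 ± 0.20 for Tnfrsf8 against Tnfsf8 (CD30 ligand, 12.3 ± 1.06 TPM) and -1.0 ± 0.11 for Tnfrsf14 against Tnfsf14 (LIGHT, 47.1 ± 2.84 TPM).

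The ligands of the second and the third most abundant members were barely counted. Tnfsf18, the GITR ligand, had 1 count over the 4 libraries and Tnfsf15, which encodes TL1A, had 2. Pooled over the libraries, Tnfrsf18 was 13884.5 times Tnfsf18 (95% interval 2491.4 to 548461.2) and Tnfrsf25 was 10035.1 times Tnfsf15 (2777.5 to 82871.6), intervals that cover counting error only. All 19 pairs, 11 with ligands and 8 between receptors, kept 1 direction in 4 of 4 libraries. The exact two-sided sign-flip permutation test gave p = 0.13 for each and 0.13 after Benjamini-Hochberg adjustment over the 19, the smallest value that 4 libraries allow, so no pair could pass 0.05.

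**Figure D4:**
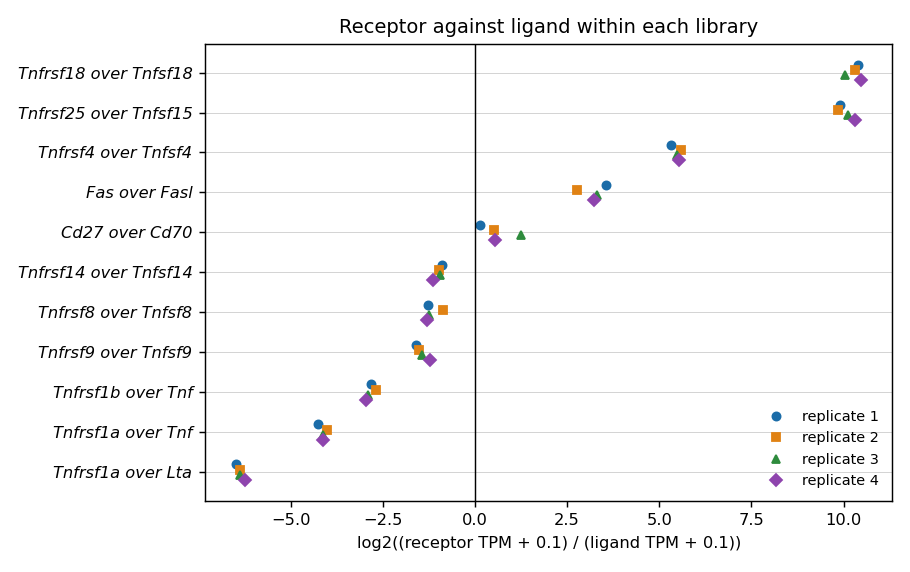
Log2 ratio of receptor TPM to ligand TPM within each library, with 0.1 TPM added to both, for 11 pairs and 1 point per library. Points right of 0 have more receptor transcript, as Tnfrsf4 over Tnfsf4 at 5.48, and points left of 0 more ligand transcript, as Tnfrsf1a over Lta at -6.37.

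Genes of the adaptors, of death signalling and of the NF-kappaB pathway, which act below these receptors, were all detected. Of 15 TRAF and survival adaptors 15 passed 1 TPM in every library, with a median of 34.4 TPM, beside 47% of protein-coding genes. Siva1, which binds CD27 and GITR, measured 148 ± 4.48 TPM, the ubiquitin ligase Traf6 107 ± 5.69 TPM and the inhibitor of apoptosis Birc3 96.1 ± 4.23 TPM. Traf1, Traf2 and Traf5, adaptors of OX40, 4-1BB and CD30, lay lower, at 36.4 ± 2.40, 34.4 ± 1.38 and 11.1 ± 0.922 TPM. Among 11 genes of death signalling 11 passed, with a median of 40.7 TPM, from Casp8 at 132 ± 2.56 and the necroptosis kinase Ripk3 at 78.5 ± 1.94 to Casp6 at 11 ± 0.916 TPM. Fadd, the adaptor of Fas, measured 18.3 ± 1.3 TPM, close to Fas at 19.7 TPM, and Cflar, the inhibitor of caspase-8, 53.5 ± 1.51 TPM.

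Among 13 NF-kappaB genes and known targets 13 passed, beside 47% of protein-coding genes, with a median of 132 TPM, the highest of the pathway lists. Nfkbia, the inhibitor that NF-kappaB induces, measured 716 ± 34.6 TPM, Nfkb2, the precursor of the alternative pathway, 372 ± 16.9 TPM and the survival gene Bcl2l1 281 ± 5.98 TPM. Of 5 genes that process or shed TNF family proteins, 4 passed: Furin at 706 ± 21.2 TPM, Adam10 at 168 ± 7.91 TPM, Adam17, the sheddase of TNF and its receptors, at 44.6 ± 0.724 TPM and Rhbdf2, its partner, at 17.9 ± 1.36 TPM. Timp3, which inhibits Adam17, was near 0 at 0.00948 TPM.

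The last comparison asked whether a member differed between the 4 libraries by more than counting noise. Of the 10 members 5 did, at a Benjamini-Hochberg adjusted p under 0.05 from the Poisson deviance with edgeR's TMM scaling over 12434 genes, and 36.6% of those genes did as well. They were Tnfrsf4 (adjusted p 2.28e-35), Tnfrsf1b (8.13e-11), Tnfrsf25 (1.38e-08), Tnfrsf9 (6.53e-05) and Tnfrsf18 (0.000893). Each of these 5 had more counts than the other 5 members except Tnfrsf9, which had 2565 against 4475 for Tnfrsf1a, and the highest library was 1.14 to 1.3 times the lowest. Without replicate 4 the number was 3, beside 25.5% of all genes tested, since Tnfrsf9 and Tnfrsf18 no longer passed (adjusted p 0.585 and 0.136). Without replicate 2 it was 4, beside 27% of all genes tested, since Tnfrsf18 did not pass (0.0577).

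Against the spread usual for genes of the same level, edgeR's trended dispersion, 0 of the 10 members stood out, beside 0.523% of the 12434 genes. The lowest adjusted p was 0.688, for Tnfrsf1b. At an unadjusted p under 0.05 there were 3, Tnfrsf1b (0.0136), Tnfrsf9 (0.0303) and Tnfrsf25 (0.048), beside 4.48% of all genes tested, and DESeq2's fitted dispersion also called 0 after adjustment. The median SD of log2 CPM (counts scaled to the library total) was 0.0913 for the members and 0.0696 for all genes tested. In replicate 4, 7 of the 10 members lay above their own mean, against 5, 3 and 2 in replicates 1, 2 and 3. The same count over all genes is not given here. The median deviation in log2 over the members lay between -0.04 and 0.04 in the 4 libraries. For protein-coding genes at 1 TPM or more it lay between -0.01 and 0.02. The p-values of these spread tests measure only the spread between these samples. The sex-linked genes divide replicates 1 and 2 from 3 and 4, so the 4 libraries were not made from 1 sample, but the labels do not say whether the libraries within a pair came from separate animals or cultures, and the spread within a pair may be technical.

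**Figure D5:**
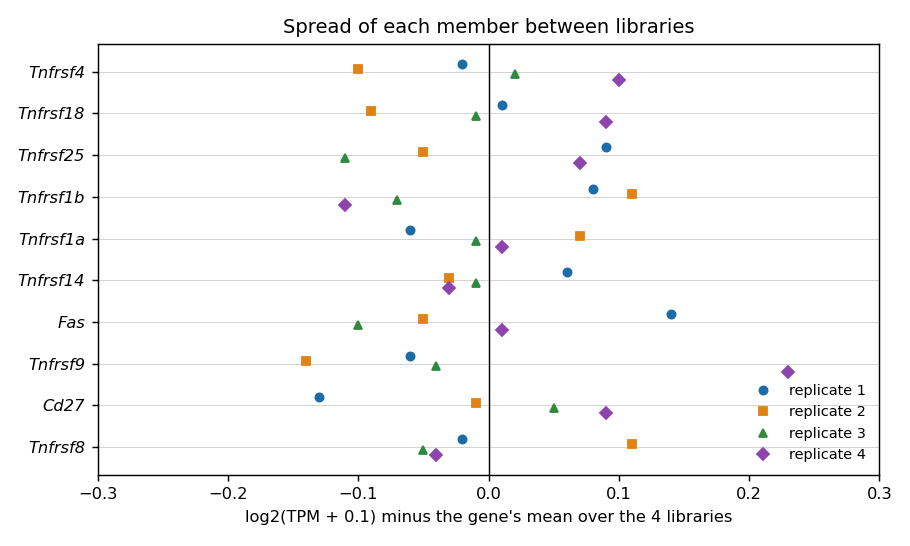
Deviation of each member's log2(TPM + 0.1) from its mean over the 4 libraries, with 1 point per library and genes ordered by mean level. The points lie between -0.14 and 0.23, and replicate 4 of Tnfrsf9 is the farthest, at 0.23.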

How the data were processed

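The authors deposited, per the file headers, whole-number counts of fragments per gene, made by featureCounts 1.4.6-p4 on GENCODE M13 gene models with the strand option at 2, for 4 libraries. The mm10 build is named per the labels; for the aligner, none is stated (not given in the sources used). The deposited exon lengths (another unit, in bases) were used to compute TPM here, and symbols came from GENCODE M21 (50376 of 50600 genes matched). Detection asked for at least 1 TPM in all 4 libraries. Ratios were taken as log2 with 0.1 TPM added and tested by an exact two-sided sign-flip test. The deposited counts were then fitted in edgeR (4.0.16, under R 4.3.3) to test the spread between libraries. TMM factors of 0.997 to 1.01, edgeR's default filter and chi-square tests with 3 degrees of freedom were used. The tests, without the filter, were also run on counts simulated from the fitted dispersions, with an outcome not reported here. The biological coefficient of variation was 0.0535. A count of 0 allows up to 3 counts, 0.0516 to 0.105 CPM. DESeq2 1.42.0 and Python 3.11.15 with pandas 2.3.3 and scipy 1.17.1 served for alternatives and ratios.

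The members and lists were chosen with earlier results of these data known. The text names all members, the genes paired with them, up to 6 of the highest and 3 of the lowest genes of each list, the nearest protein-coding genes and the 3 genes closest in level to the highest member; Traf1, Traf2 and some others of those lists were named for their role after their values were seen. A few genes of the lists count in the totals and are not reported here by name.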

Additional observations from a re-analysis of the deposited data

Results flagged for a closer look

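Of 74 levels and ratios screened, 5 had 1 library far from the other 3, with a gap to the nearest above Dixon's 95% critical share of the whole range for 4 samples. Chance alone flags about 1 in 20. Among the members, Tnfrsf8 in replicate 2 measured 5.82 TPM, above 5.22 to 5.32 TPM in the others. The log2 ratio of Tnfrsf4 to Tnfrsf9 in replicate 4 was 5.49, below 5.65 to 5.68 in the others. The log2 ratio of Tnfrsf8 to Tnfsf8 in replicate 2 was -0.88, against -1.30 to -1.25 in the others. Among the pathway genes, Ikbkb in replicate 2 measured 17.3 TPM, below 17.9 to 18 TPM. Tnfsf14 in replicate 4 measured 51.4 TPM, above 45.4 to 46.2 TPM.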

How the results depend on the processing

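All 19 pair ratios kept their direction with CPM in place of TPM and with another length. They also did under other pseudocounts and without each replicate (152 of 152 values over all these settings). The result of the latter settings was fixed in advance. A pseudocount is added to both genes alike, and each pair had 1 direction in 4 of 4 libraries. All 10 members stayed detected at 5 TPM and 9 passed 10 TPM, beside 8813 and 7756 of 21764 protein-coding genes. Their detection at 0.5 TPM and without each replicate follows from passing 1 TPM in every library. By CPM, which is not scaled by length, 5 of 10 members kept their rank: Tnfrsf1b moved above Tnfrsf25 and Tnfrsf18, and Tnfrsf14 below Cd27. Leaving out 1 of 4 libraries cannot move a mean by more than 1 SD, so 0 of 40 member levels doing so was fixed in advance. With CPM, another unit than TPM, 9 of 10 moved by more than 1 SD. When TPM was scaled over nuclear protein-coding genes 5 of 10 did. With the length of the longest protein-coding transcript, an alternative chosen after seeing the data, 7 of 10 did. With that length 8 of 10 members kept their rank and Tnfrsf9 and Tnfrsf14 changed places. Tnfrsf14 then lay below Fas (16.9 and 17.4 TPM), as it did by CPM (8.18 and 10.6). The number of members beyond counting noise was 3 to 5 when 1 replicate was left out and 5 with DESeq2 size factors or no filter. Over all genes tested, 25.5% to 29.4% passed with 1 replicate left out, 36.6% with DESeq2 size factors and 22.3% without the filter. It was 0 members when the highest library also had to be at least 2 times the lowest, and the share of all genes for that setting is not given here. Against the trended spread 0 members passed under every alternative run, while over all genes the calls went from 65 to 107 with dispersions from genes outside chromosomes X and Y, to 113 of 22339 without the filter and to 32 to 49 with 1 replicate left out, which leaves fewer samples. At 5 TPM 3 of 6 regulatory T cell markers passed, and at 0.5 TPM 1 of 6 B cell markers. No paired analysis between groups was possible because the libraries form 1 group, and the ratios were taken within each library. Levels from few counts, such as Tnfrsf17 or Tnfsf18, are limited by depth.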
